A study of Mus musculus with 9 samples.

Results

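The peaks described here lie outside annotated genes, upstream of a gene start, and come from the authors' SAFB peaks in mouse embryonic stem cells. A peak was included when its midpoint lay in no gene of the GENCODE M21 annotation on either strand and within 10000 bases upstream of the 5′ end of a gene, and not within 10000 bases past the end of a gene on its own strand. Of the 30998 peaks in the authors' deposited list, 1254 (4.05%) met this rule, out of 6292 peaks outside genes. Among them, 401 lay upstream of a gene on the same strand and no divergent gene (same-strand upstream), 704 lay upstream of a gene on the opposite strand only (divergent), and 149 met both descriptions and were kept apart. The other intergenic peaks were 2950 past a gene end and 2088 far from any gene. The gene to which a peak was assigned, the one with the nearest start in that orientation, is called its partner.

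RNA was recovered by immunoprecipitation and sequenced (RIP-seq) in 9 libraries from male CAST/B6 Rosa26-RMCE embryonic stem cells, all given doxycycline for 3 days. The SAFB1 antibody was used in 2 libraries of safb1/2 double-knockout clones (4 and 13) and in 3 wild-type libraries (the parent line and clones 20 and 44). A FLAG antibody was used in 1 library of double-knockout clone 13 carrying a full-length SAFB1 rescue plasmid and in 1 library of the same clone carrying an eGFP plasmid, and IgG in 2 wild-type libraries (parent and clone 20). The genotype label of the rescue library reads WT while its title names the knockout clone, and the title was followed. The list gives 1 set of stranded positions for the whole series, with no read counts and no value per library. Its peak names carry the tag wt_saf, a strand and a number, and it names no library. Differences between antibodies or genotypes were therefore not measured, there are no replicates, and how many reads support a given peak is unknown. All intervals below are 95% intervals for counting error alone, with each peak taken as independent of the others.

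SAFB1 and SAFB2 are nuclear RNA-binding proteins first described as binding scaffold attachment DNA. Many mammalian promoters, above all those rich in the dinucleotide CpG, start RNA polymerase II in both directions, and the divergent product is usually a short-lived non-coding RNA, the upstream antisense RNA or PROMPT, that is cut early and degraded by the nuclear exosome. RNA upstream of a gene on its own strand has other possible sources, among them alternative starts of the gene, enhancers and unannotated genes. The list does not tell these apart.

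The 5 promoter sequences below show what lies under peaks next to gene starts. They are the 250 bases before a gene start, from RefSeq (GRCm38.p6, the assembly of mm10), written 5′ to 3′ on the strand of the gene, with CpG dinucleotides in capitals. A peak covered at least 50 bases of each window, and no window overlaps a GENCODE or RefSeq gene. Of the windows of protein-coding genes that met this, chosen after the peaks were seen, the 4 with the closest divergent peaks are shown, and Hilpda was the 1 with a same-strand peak.
Hilpda: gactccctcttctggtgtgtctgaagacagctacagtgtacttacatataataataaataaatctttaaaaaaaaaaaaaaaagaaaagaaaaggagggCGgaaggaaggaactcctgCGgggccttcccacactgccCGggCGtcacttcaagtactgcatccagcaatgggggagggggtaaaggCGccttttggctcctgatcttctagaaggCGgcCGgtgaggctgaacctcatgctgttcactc
Ccdc182: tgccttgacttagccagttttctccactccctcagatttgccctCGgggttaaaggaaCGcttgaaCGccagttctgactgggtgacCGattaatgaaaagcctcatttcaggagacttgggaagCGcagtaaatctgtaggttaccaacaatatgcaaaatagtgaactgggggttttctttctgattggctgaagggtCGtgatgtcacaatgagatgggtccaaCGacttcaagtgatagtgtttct
Eng: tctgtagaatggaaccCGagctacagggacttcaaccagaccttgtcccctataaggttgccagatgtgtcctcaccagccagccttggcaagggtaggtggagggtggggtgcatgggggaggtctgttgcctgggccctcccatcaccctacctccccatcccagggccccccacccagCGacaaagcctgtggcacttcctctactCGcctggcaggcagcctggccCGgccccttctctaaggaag
Zfp202: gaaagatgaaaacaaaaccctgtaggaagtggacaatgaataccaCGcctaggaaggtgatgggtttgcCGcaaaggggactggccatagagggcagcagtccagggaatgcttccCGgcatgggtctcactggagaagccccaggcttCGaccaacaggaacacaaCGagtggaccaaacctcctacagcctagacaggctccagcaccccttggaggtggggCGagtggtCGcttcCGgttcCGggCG
Mrpl20: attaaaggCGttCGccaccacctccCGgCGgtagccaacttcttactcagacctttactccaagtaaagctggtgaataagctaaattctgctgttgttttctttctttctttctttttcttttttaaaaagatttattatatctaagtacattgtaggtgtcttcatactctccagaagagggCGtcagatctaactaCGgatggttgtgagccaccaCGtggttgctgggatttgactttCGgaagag
Hilpda, a hypoxia-induced lipid droplet protein gene, has its window at chr6:29272238-29272487 on the plus strand, and the same-strand peak chr6:29272312-29272418 covered bases 75 to 181 of it. The window holds 7 CpG. The other 4 windows lay under divergent peaks on the minus strand, upstream of plus-strand genes. Ccdc182 (chr11:88293793-88294042) was covered from base 43 to base 250 and holds 7 CpG. Eng, which encodes the TGF-beta co-receptor endoglin (chr2:32646345-32646594), was covered whole and holds 4 CpG. Zfp202, a zinc finger gene (chr9:40192066-40192315), was covered from base 24 to base 135 and holds 10 CpG. Mrpl20, the gene of a mitochondrial ribosomal protein (chr4:155802628-155802877), was covered whole and holds 8 CpG.

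Over all windows that a peak overlapped, those under same-strand peaks had a median of 7 CpG (range 3 to 19, 7 windows) and those under divergent peaks 16 (range 2 to 35, 52 windows). On the strand of the peak, the covered bases were 54.4% purine under same-strand peaks and 51.3% under divergent peaks, beside 50.2% and 49.8% for all windows read in the same orientation. In all results below, a promoter was called CpG-rich when its RefSeq window (250 bases before to 50 after the start) had a CpG observed over expected ratio of at least 0.6 and at least 50% GC. The windows of Hilpda and Zfp202 met this definition, and those of Ccdc182, Eng and Mrpl20 did not.

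Divergent peaks outnumbered same-strand upstream peaks, also for the sequence available to each. The same-strand class made up 36.3% of the 1105 peaks of 1 orientation (Wilson interval 33.5 to 39.2). To compare densities, every strand-base of the genome that the rule would accept was counted, and these are called open bases. Same-strand upstream peaks numbered 1.97 per open Mb (401 in 203 Mb) and divergent peaks 3.18 per open Mb (704 in 222 Mb). The ratio was 0.621 (0.548 to 0.703, exact binomial test, two-sided, p adjusted over 7 orientation comparisons = 3.45e-14). Over the whole window and all gene types, this difference rests on the exclusion of peaks past gene ends. With none left out for that reason, 988 same-strand peaks stood against 1038 divergent ones on equal open sequence. The ratio was then 0.952 and the adjusted p of the exact test 0.387. Within 1000 bases of the start, 140 of these same-strand peaks stood against 212 divergent ones. The share so near the start still differed, by -6.25 percentage points (Fisher's exact test, adjusted p = 0.000502).

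The excess of divergent peaks lay close to the gene start. For a view by distance, peaks past gene ends were again left out. Every remaining same-strand and divergent peak was placed by its own nearest start, so that a peak with both could count in each. The densities in this paragraph hold under that exclusion, and densities by distance without it are not given here. In the first 1000 bases there were 3.01 same-strand peaks per open Mb (2.39 to 3.74) and 6.86 divergent peaks (5.95 to 7.87), a ratio of 0.438. Between 1000 and 3000 bases the densities were 2.11 and 3.83 in the same order of orientation, a ratio of 0.551 (0.434 to 0.697). From 3000 to 10000 bases they were 2.20 for same-strand and 2.48 for divergent peaks, and the interval of the ratio, 0.770 to 1.02, included equality. Beyond the window the order was the other way round. Between 10000 and 20000 bases there were 2.34 same-strand and 1.84 divergent peaks per open Mb (ratio 1.27, 1.11 to 1.47), and between 20000 and 30000 bases 2.03 and 1.54 (ratio 1.32, 1.12 to 1.56). The divergent density thus fell with distance over the first few kilobases. The same-strand density was also highest in the first 1000 bases, at 3.01, and lay between 2.03 and 2.34 in the intervals beyond. Just inside the 10000-base limit, at 9000 to 10000 bases, lay 53 same-strand and 40 divergent peaks, and just outside it, at 10000 to 11000 bases, 41 and 51.

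**Figure D1:**
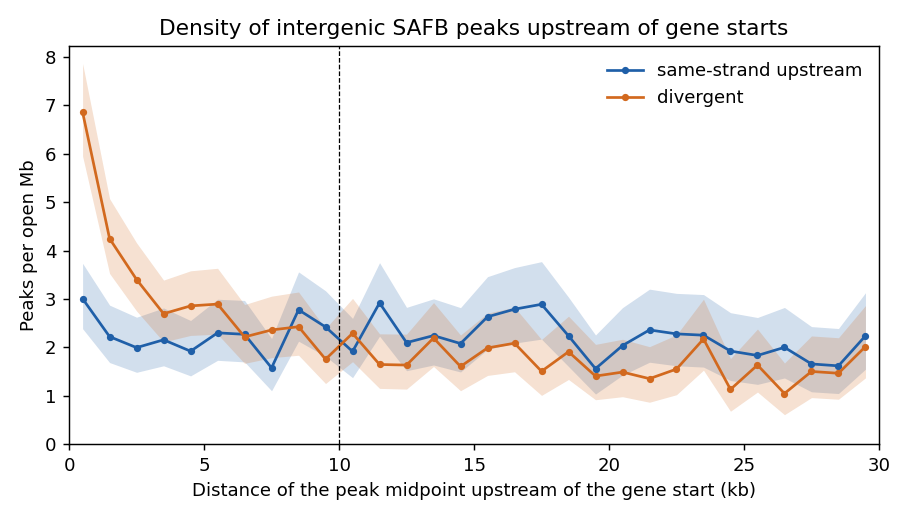
Density of intergenic SAFB peaks (peaks per open Mb, y axis) by distance of the peak midpoint upstream of its nearest gene start (kb, x axis, 1000-base bins), for same-strand upstream peaks (blue) and divergent peaks (orange), with 95% Poisson intervals shaded and the 10000-base limit dashed. Peaks within 10000 bases past the end of a gene on their own strand are left out. The divergent curve stands at 6.86 in the first bin against 3.01 for same-strand peaks, and the curves meet within the window.

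Among peaks of 1 orientation only, divergent ones were also more often near the start. Within 1000 bases of the start lay 57 of 401 same-strand peaks (14.2%) and 156 of 704 divergent peaks (22.2%), an adjusted p of 0.00161 by Fisher's exact test. By the same exact test the adjusted p was 0.107 with a window of 5000 bases and 0.0539 with peaks placed by their 5′ ends. The open sequence so close to a start was 10.9% for the same-strand orientation and 11.3% for the divergent one. Median distances to the start were 4835 bases for same-strand and 3252.5 bases for divergent peaks. The ratio of densities was 0.412 in the first 1000 bases (2.56 and 6.21 peaks per open Mb) and 0.681 in the rest of the window (1.90 and 2.79). The ratios differed in an exact conditional test of the interaction, chosen after the values were seen (p = 0.00317, adjusted over 2 such tests). The 149 peaks with a gene on both sides had a density of 3.82 per open Mb. Among them the same-strand start was the nearer in 55 (2.84 per open Mb of such sequence) and the divergent start in 94 (4.79).

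The divergent excess was found next to protein-coding genes. Peaks with a protein-coding partner numbered 2.33 per open Mb on the same strand (183 peaks) and 5.33 divergently (493 peaks), a ratio of 0.437 (0.367 to 0.519, exact test, p adjusted over 5 gene types = 4.91e-23). Next to long non-coding RNA genes the densities were 2.13 for same-strand and 1.86 for divergent peaks (80 and 67 peaks, ratio 1.15, 0.817 to 1.61, exact test, adjusted p = 0.715). Pseudogenes gave 1.56 same-strand and 1.43 divergent peaks per open Mb (ratio 1.09, 0.815 to 1.45). Small RNA genes gave 1.45 and 1.95 with 23 same-strand and 31 divergent peaks, and the intervals of both small RNA genes (0.415 to 1.32) and genes of the annotation's provisional TEC type (0.497 to 2.63) were wide. For all partners other than protein-coding genes the ratio was 1.07 (0.881 to 1.30, 218 same-strand and 211 divergent peaks). The ratio for protein-coding partners differed from it (exact test of the interaction, p adjusted over 2 tests = 7.77e-12).

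**Figure D2:**
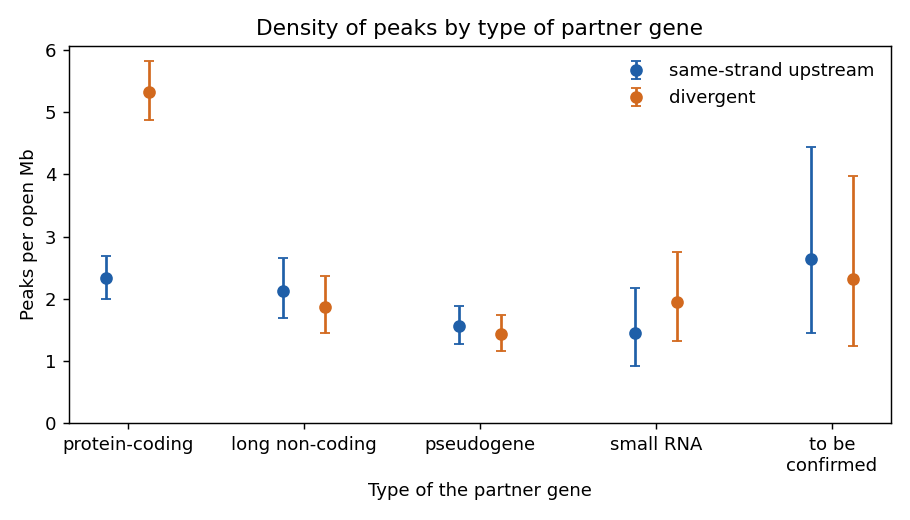
Peaks per open Mb (y axis) by type of the partner gene (x axis) for same-strand upstream (blue) and divergent (orange) peaks, with 95% Poisson intervals. Only next to protein-coding genes do the intervals stand apart, at 2.33 for same-strand and 5.33 for divergent peaks.

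In shares, 45.6% of same-strand peaks (40.8 to 50.5) and 70.0% of divergent peaks (66.5 to 73.3) had a protein-coding partner (Fisher's exact test, adjusted p = 1.34e-14). The open sequence next to protein-coding genes was 38.7% for the same-strand orientation and 41.7% for the divergent one. With protein-coding partners alone and none left out past gene ends, a setting chosen after the values were seen, 543 same-strand peaks stood against 665 divergent ones. The ratio was then 0.817 (exact test, adjusted p = 0.000888), so the call was kept while the difference was smaller than the 0.437 found with the exclusion.

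Few genes had such a peak. Of 30784 genes of any type with at least 1 open same-strand base, 455 (1.48%) had a same-strand upstream peak, and of 35612 with an open divergent base, 705 (1.98%) had a divergent one. Peaks with a partner on both sides count for both genes here. For protein-coding genes these numbers were 219 of 13355 (1.64%) and 502 of 16612 (3.02%). With either orientation, 1122 of 38337 genes (2.93%) had a peak, of which 907 had 1, and the most for any gene was 6. Both orientations occurred at 38 genes. Another peak of the same orientation and strand lay within 5000 bases of 27.2% of same-strand peaks (23.1 to 31.7) and 30.7% of divergent peaks (27.4 to 34.2), a difference that did not pass Fisher's exact test (adjusted p = 0.284).

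Divergent peaks had a partner gene with a CpG-rich promoter more often than same-strand peaks did. Promoter windows were matched by gene symbol for 549 of 999 partner genes. A CpG-rich partner promoter was found for 79 of 176 same-strand peaks (44.9%, 37.7 to 52.3) and 269 of 416 divergent peaks (64.7%, 60.0 to 69.1), an adjusted p of 2.50e-05 by Fisher's exact test. Counted once per gene, 65 of 151 same-strand partners (43.0%) and 224 of 341 divergent partners (65.7%) were CpG-rich, against 33.5% of all 32851 RefSeq windows. Median GC content was 55.3% for same-strand partners, 62.0% for divergent partners and 52.7% for all windows. The set of all windows was not matched to the partners in gene type or in windows per gene. Of the 176 and 416 peaks, 144 and 385 had a protein-coding partner. Among these, in a setting chosen after the values were seen, 78 same-strand and 267 divergent peaks had a CpG-rich partner promoter. The adjusted p of Fisher's exact test was 0.00336. Among protein-coding genes with a window, 4856 of those open to same-strand peaks were CpG-rich and 5485 were not. Of those open to divergent peaks, 5863 were and 7089 were not. The 33.5% is therefore no measure of enrichment among the partners.

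A set of 5 short promoter motifs was counted in the same 300-base windows on both strands. The shares of all windows are again for that unmatched set. The GC box GGGCGG was in 48.3% of same-strand partners' windows, 59.5% of divergent partners' and 35.7% of all windows. The ETS-type element CCGGAAG was in 8.61% for same-strand, 14.4% for divergent partners and 8.86% of all windows. The TATA element TATAAA was in 11.3% for same-strand partners, 6.45% for divergent partners and 13.6% of all. CCAAT was in 41.1% for same-strand and 35.2% for divergent partners, near the 37.4% of all windows. The palindromic NRF1 element was in 1 same-strand and 5 divergent partners' windows, and in 0.971% of all. GGGCGG and the CpG definition overlap in sequence, since the motif holds a CpG, and the matches are letters in a window, not tested sites.

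Seen from the side of the gene, protein-coding genes with a CpG-rich promoter had a divergent peak in 4.78% of cases (280 of 5863, 4.26 to 5.35), and the other genes with a window in 1.54% (109 of 7089, 1.28 to 1.85). For same-strand peaks the shares were 1.89% for CpG-rich genes (1.55 to 2.32) and 1.48% for the others (1.19 to 1.83). Per open Mb, the same-strand values were 3.47 for CpG-rich genes and 2.25 for the others, and the divergent values 9.24 and 2.68. These densities were not tested. Median open same-strand sequence was 9261 bases for the CpG-rich genes and 10000 for the others. The CpG-rich genes also had less open divergent sequence (median 7492 bases) than the others (10000 bases), and they were longer (medians of 30.5 and 12.4 kb). No expression values were used, so the part of transcription in these shares was not tested.

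In both orientations, the share of genes with an upstream peak was higher among genes with a SAFB peak inside them. A sense peak, one within a gene on its strand, was present in 26.2% of protein-coding genes. Of genes with a sense peak 2.55% had a same-strand upstream peak (2.09 to 3.12), and of those without one 1.29% (1.09 to 1.54). For divergent peaks the shares were 4.90% of genes with a sense peak (4.30 to 5.59) and 2.36% of those without (2.11 to 2.65). Genes with a sense peak were longer, with medians of 58.3 and 13.1 kb among the genes open to a divergent peak. Taken per peak, 32.2% of same-strand peaks (27.8 to 36.9) and 32.4% of divergent peaks (29.0 to 35.9) had a partner with a sense peak, with an adjusted p of 0.947.

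**Figure D3:**
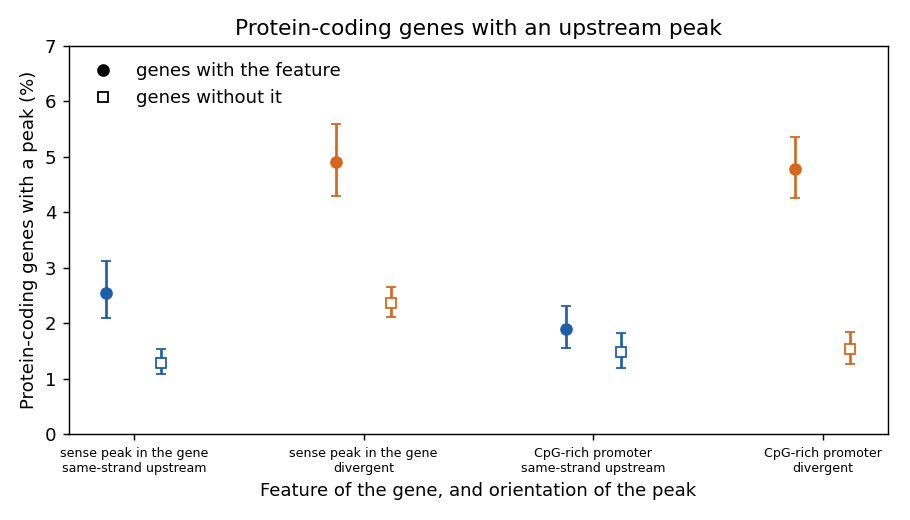
Share of protein-coding genes (%, y axis) with a same-strand upstream peak (blue) or a divergent peak (orange), for genes with a feature (filled circles) and without it (open squares), with 95% Wilson intervals. The features on the x axis are a sense peak in the gene and a CpG-rich promoter, and the widest gap is that of divergent peaks by CpG content, 4.78% with and 1.54% without a CpG-rich promoter.

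Divergent peaks were wider than same-strand ones. The median width was 462 bases for same-strand upstream peaks (quartiles 238 and 927) and 606 bases for divergent peaks (301 and 1033). At least as wide as the median of the whole list, 596 bases, were 40.4% of same-strand peaks (35.7 to 45.3) and 50.7% of divergent peaks (47.0 to 54.4), an adjusted p of 0.00161 by Fisher's exact test. The adjusted p was 0.0512 with a limit of 1000 bases, 0.0591 when peaks inside RefSeq genes were left out as well, and 0.0672 when peaks were placed by their 5′ ends. Within 1000 bases of the start the median widths were 591 bases for same-strand and 752 bases for divergent peaks. From 1000 to 3000 bases they were 349.5 and 634 bases, and from 3000 to 10000 bases 463.5 and 557 bases. The divergent median was thus highest next to the gene start and above the same-strand median in each interval.

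Set against the other intergenic peaks, upstream peaks of all orientations (median 559.5 bases) were wide in 47.1% of cases (44.4 to 49.9), and peaks far from genes in 40.5% (38.4 to 42.6; Fisher's exact test, p adjusted over 2 pairs = 0.000403). With only peaks lying wholly outside genes the adjusted p of that exact test was 0.0885. Peaks past gene ends were wide in 44.4% (42.6 to 46.2), which did not differ from the upstream peaks beyond counting error (Fisher's exact test, adjusted p = 0.111), though the difference passed under 3 of the other settings. The medians of those classes were 469 bases far from genes and 515.5 bases past gene ends.

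**Figure D4:**
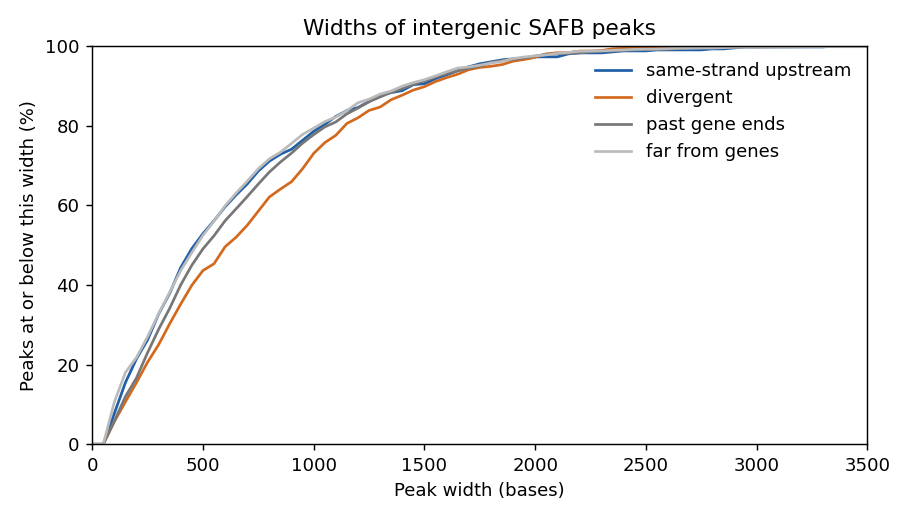
Cumulative share of peaks (%, y axis) up to a given width (bases, x axis) for same-strand upstream peaks (blue), divergent peaks (orange), and intergenic peaks past gene ends (dark grey) and far from genes (light grey). Between 500 and 1900 bases the divergent curve runs lowest, with a median of 606 bases, and the same-strand curve, with a median of 462 bases, runs along that of peaks far from genes.

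Whether a peak is intergenic depends on the annotation. In RefSeq's gene spans lay 102 of the 401 same-strand peaks (25.4%, 21.4 to 29.9) and 178 of the 704 divergent peaks (25.3%, 22.2 to 28.6). The RefSeq gene was the partner itself, which RefSeq starts further upstream, for 36 same-strand and 48 divergent peaks, as at Asb1, Defb47 and Zdbf2 and at Enah, Itgav and Rfc1. By RefSeq those 36 peaks are inside the gene in the sense direction and those 48 inside it in the antisense direction. Genes named below with a peak inside a RefSeq gene on the peak's strand include Zfp982, Gm18555, Platr4, Zfp64, Cdca4, Gm12866 and Chd1. With peaks and bases inside RefSeq genes left out, a setting chosen after the values were seen, the direction and the call of the density comparison were kept.

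For single genes, peaks with a partner on both sides are counted for each partner. The same-strand upstream loci with most peaks included protein-coding genes, long non-coding genes and pseudogenes. Srgap1, a gene of Slit-Robo signalling, had 5 peaks between 5240 and 9693 bases upstream, from chr10:122052406-122052705 to chr10:122056847-122057170, and 6 sense peaks within the gene. The pseudogenes Gm49219 and Gm10155 had 5 and 4, and the closest one of Gm49219, 1499 bases wide, covered the pseudogene. Gm10062, a long non-coding gene, and Defb47 had 4 each. Reads from near-identical gene copies can be placed at more than 1 of them, and how the authors treated such reads is not given in the sources used here. Platr4, a long non-coding transcript associated with pluripotency, had 3 same-strand peaks, of which chr3:41498044-41501355 was the widest of all upstream peaks at 3312 bases. Platr4 also held 5 sense peaks. The small RNA gene Gm25487, on the same strand of chromosome 3, had 4 same-strand peaks and 1 divergent one.

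The protein-coding genes with the closest same-strand peaks were Plcxd1 (28 bases from the start, 177 bases wide), Gm10282 (66 bases, 103 wide), Nckap1l (74 bases, 495 wide), Zfp982 (75 bases, 564 wide) and Hilpda (123 bases, 107 wide). The peaks of Plcxd1, Nckap1l and Zfp982 also had a divergent gene, and are among the 149 kept apart. The midpoint of the Zfp982 peak lay in RefSeq's longer span of Zfp982, in the sense direction. Hilpda had a second at 901 bases, 103 bases wide. After that of Platr4, the widest same-strand peaks were at Gm38509 (2927 bases wide, 4856 from the start), Acot11 (2865 and 7853), Gm18555 (2763 and 1048) and Rhcg (2521 and 4644).

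Several divergent loci held a run of peaks on the strand opposite to the gene. Klf4, which encodes a zinc finger factor of the pluripotency network, had 3 plus-strand peaks opposite to the minus-strand gene, at chr4:55533393-55534841, chr4:55540003-55540560 and chr4:55540867-55541568. Their midpoints lay 1651, 7815 and 8751 bases upstream of the start, all 3 midpoints lay in the RefSeq gene Gm12506 on their strand, and Klf4 itself held no sense peak. Noct, a gene of the deadenylase-like protein nocturnin, had minus-strand peaks of 1107, 982 and 945 bases at 586, 2972 and 6955 bases. Csnk2a1, the gene of a catalytic subunit of casein kinase 2, had 3 within 3609 bases, the nearest at chr2:152226038-152226763. Phf3, a gene of a PHD finger protein that binds RNA polymerase II, had a peak of 1077 bases across its start (chr1:30873775-30874851) and 2 more at 6578 and 7437 bases.

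The most divergent peaks were at C430039J16Rik, a long non-coding RNA gene on chromosome 13, with 5 between chr13:97274794-97274903 and chr13:97281200-97282470. The long non-coding gene Lncenc1, on the same strand further along that chromosome, had 2, the wider of 1561 bases. Cdca4, Rmdn2, Ccdc182 and Zfp710 each had 3 divergent peaks, with the nearest at 602, 367, 24 and 629 bases in that order. The closest divergent midpoint to a protein-coding start was that of Zmat3, a p53-induced RNA-binding protein gene, at 2 bases (chr3:32365067-32366965, 1899 bases wide). It lay partly over the gene, and its midpoint was within the RefSeq gene 4930429B21Rik on its own strand. Ccdc182 followed at 24 bases, Tpp2 at 98, Cdh3 (P-cadherin) at 105 and Nsun4 at 114.

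The widest divergent peak had 2896 bases (chr1:86518084-86520979) and lay 7195 bases upstream of Ptma, the prothymosin alpha gene. At Setd1a, a histone H3 lysine methyltransferase gene, a peak of 2727 bases (chr7:127774450-127777176) reached over the start. Those at Gm12866 and 1700039I01Rik had 2687 and 2360 bases. The peaks of 1700039I01Rik lay in RefSeq's longer span of Zdbf2 on their own strand.

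Of the 38 genes with peaks of both orientations, those with most peaks are given here. Zfp64, a zinc finger gene with 7 sense peaks, had 1 same-strand peak at 5309 bases and divergent peaks at 1161, 2413 and 4913 bases. Zfp710, also among the genes with most divergent peaks, had its same-strand peak at 9886 bases and divergent ones at 629, 1425 and 5355. Grn, the progranulin gene, had 1 same-strand peak at 6545 bases and 3 divergent ones at 5929, 6779 and 9283, of which the second overlapped it on the other strand. At Mir298, in the imprinted Gnas region, 1 same-strand peak lay at 3411 bases and 3 divergent ones at 2279, 3741 and 9361. The last of these, chr2:174276095-174277798, was at the same time the peak upstream of Gnas (7374 bases), the gene of the stimulatory G protein alpha subunit.

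A run of minus-strand peaks crossed several genes on chromosome 9. Olfr985, a minus-strand olfactory receptor gene, had 5 same-strand peaks between chr9:40132365-40132684 and chr9:40139675-40139748, and 1 divergent peak on the plus strand. The plus-strand genes next to it had divergent peaks on the minus strand, Tmem225 4 of them (74 to 772 bases wide), Olfr986 4 (196 to 1071 bases wide) and Zfp202 2. A pair of the Tmem225 peaks are also those furthest from Olfr985, so neighbouring loci are not independent.

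**Figure D5:**
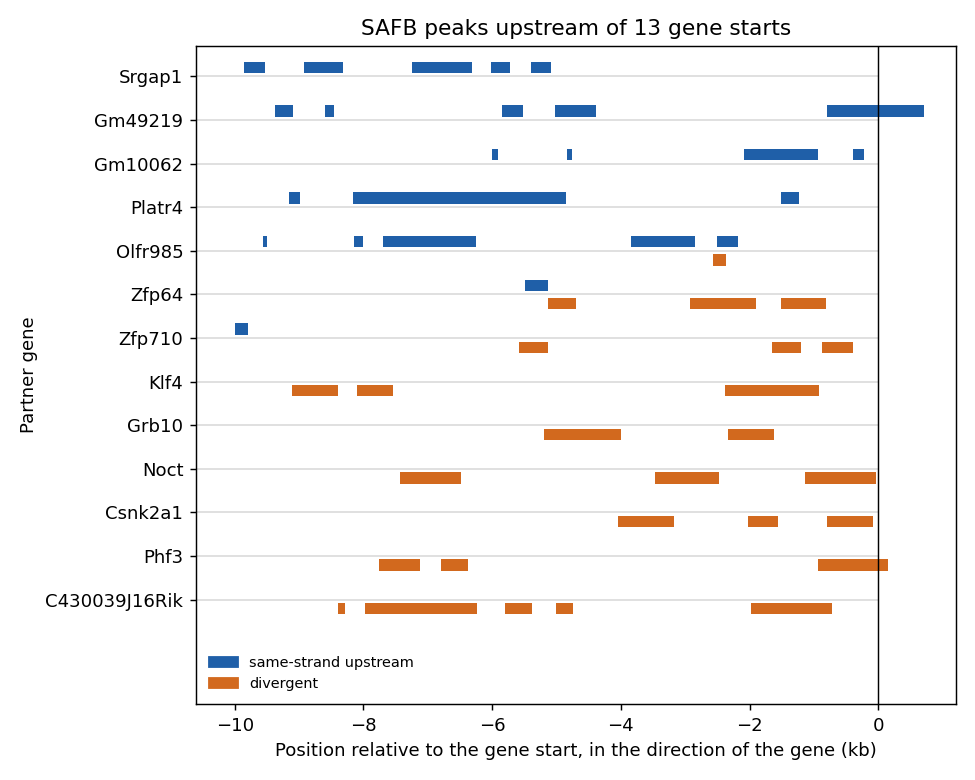
Position of peaks relative to the start of their partner gene (kb, negative is upstream, x axis) at 13 genes (y axis), drawn to scale. Same-strand upstream peaks are blue bars above each line and divergent peaks orange bars below it. Srgap1 has 5 same-strand peaks, none nearer than 5240 bases, and the divergent peaks of Noct, Csnk2a1 and Phf3 begin next to the start.

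Genes of 11 functional lists were then looked up, of which those with an upstream peak were few. Of 25 pluripotency and early lineage regulators open to same-strand peaks 2 had one, among them Id1, beside a background of 1.64% of protein-coding genes. Of 27 open to divergent peaks 4 had one, beside a background of 3.02%. These were Klf4, Nodal (a TGF-beta ligand), Tdgf1 (the Nodal co-receptor Cripto) and Utf1. The peak of Id1, an inhibitor of basic helix-loop-helix factors, lay at 5144 bases on the same strand. Nodal's divergent peak, 1242 bases wide, lay at 2603 bases and that of Tdgf1 at 381 bases. The Tdgf1 peak also had a same-strand gene, Lrrc2, and is among those kept apart.

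Chromatin regulators had same-strand peaks at 0 of 25 open genes and divergent peaks at 4 of 31, beside 1.64% and 3.02% of all protein-coding genes. Besides Setd1a, those with divergent peaks were Jarid2, a partner of Polycomb complex PRC2 (4654 and 5807 bases), Rad21 of cohesin (3522 and 4440 bases) and the remodeller Chd1 (8346 bases). Imprinted protein-coding genes had same-strand peaks at 3 of 22, which were Ascl2, Gnas and Zdbf2, and divergent peaks at 1 of 19, beside the same 1.64% and 3.02%. This was Grb10, an adaptor that restrains insulin signalling, with plus-strand peaks chr11:12040308-12041022 and chr11:12042673-12043875 and 9 sense peaks in the gene.

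The lists of RNA metabolism held single genes with a peak, again beside 1.64% of protein-coding genes for same-strand and 3.02% for divergent peaks. Of the RNA polymerase II and elongation genes 0 of 21 had a same-strand peak and 1 of 29 a divergent one, Nelfa, a subunit of the pausing factor NELF (4122 and 8057 bases). Both Nelfa peaks also had the same-strand gene Gm42849 and are among those kept apart. Among RNA decay and 3′ end factors Clp1, an RNA kinase of the cleavage machinery, had a same-strand peak and Xrn2, a nuclear exonuclease, a divergent one at 1075 bases, 1 of 15 and 1 of 22 open genes. The Clp1 peak is also kept apart, and lay nearer to the divergent gene Ypel4 (3083 bases) than to Clp1 (3625 bases). Splicing factors and RNA-binding proteins had 0 of 30 same-strand and 1 of 29 divergent. That gene was Sltm, a relative of SAFB, with a minus-strand peak of 985 bases at chr9:70541486-70542470. Ribosomal protein genes had 1 of 17 same-strand (Rpl24) and 2 of 24 divergent (Rpl14 at 989 bases and Rpl26 at 1063). Listed long non-coding RNAs had 1 of 21 (Platr4) and 1 of 20 (Lncenc1), beside 1.48% and 1.98% of genes of any type. The counts in all these lists are small, and no list was tested against the background.

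Developmental transcription factors had no peak of either orientation (0 of 27 genes open to same-strand and 0 of 26 open to divergent peaks), nor did primitive endoderm genes (0 of 10 and 0 of 9) or fibroblast genes (0 of 13 and 0 of 11). With 1.64% and 3.02% of all protein-coding genes having such peaks, counts of 0 in lists of this length do not set these genes apart. As a check of the cell type, sense peaks were present in 3 of 12 embryonic stem cell markers (Tfcp2l1, Zfp42 and Esrrb). They were present in 6 of 10 primitive endoderm markers (Col4a1, Col4a2, Gata4, Sox7, Dab2 and Lama1) and 1 of 8 fibroblast markers (Pdgfrb). Of all protein-coding genes, 26.2% had one. The endoderm share was the highest, so sense peaks did not single out the stem cell markers. A list of positions without levels does not measure how strongly these genes were expressed. Divergent peaks were found at 3 of the 12 stem cell markers (Klf4, Utf1 and Tdgf1), beside 3.02% of protein-coding genes open to them. Upstream peaks of any kind were found at none of the 10 endoderm and 8 fibroblast markers. These counts were not tested.

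Upstream peaks lay on both strands and on every chromosome used. The plus strand held 590 and the minus strand 664. The same-strand share was lowest on chromosome 11 (24.3%, 17 same-strand and 53 divergent peaks). Among chromosomes with more than 1 peak it was highest on chromosome 10 (58.3%, 35 and 25), which holds Srgap1. Peaks between a gene on each side included chr17:56301946-56303907, which lay 2640 bases from Arrdc5 on its strand and 395 bases from the divergent gene Uhrf1, a factor of maintenance DNA methylation. At Klf6 a peak of 1947 bases lay 1347 bases away divergently and 2043 bases from 1700016G22Rik on its strand.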

How the data were processed

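The authors deposited 1 list of 30998 peaks for 9 RIP-seq libraries, giving a position, a strand, a name and a score for each. The score the authors deposited is 500 in every peak and was not used. The submitters' processing notes name mm10, STAR, Subread and featureCounts. Peak names carry the tag wt_saf. How peaks were called, from which libraries, and whether libraries were pooled, is not given in the sources used here. Per the labels' protocols, ribosomal RNA was removed before library preparation. Starts were taken as counted from 0.

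Genes came from GENCODE M21 (GRCm38, 55413 genes used) and promoter windows from RefSeq. Each peak was placed by its midpoint. Open bases are strand-bases where the rule would accept a midpoint, counted exactly and not masked for unmappable sequence. Densities were compared by an exact binomial test, shares by Fisher's exact test (both two-sided), and ratios of densities by an exact conditional test of the interaction, with Benjamini-Hochberg adjustment within each family and a threshold of 0.05. Python 3.11.15, numpy 2.4.6, pandas 2.3.3 and scipy 1.17.1 were used. Placement and counting were tested on simulated peaks.

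The peaks, gene lists and tests were chosen with earlier results of these data known, and the tests by gene type, the interactions, the shares of genes and the RefSeq overlap after the values were seen. Named genes are, for each orientation, the 10 with most peaks (ties by the nearest peak), the 5 protein-coding genes with the closest peak and the 5 widest peaks, the 5 genes with most peaks among those with both orientations, and up to 4 genes of each of 11 lists. Some genes that these rules cover are not reported here. Genes not on that rule (Zfp202, Eng, Mrpl20, Asb1, Enah, Itgav, Rfc1, Utf1, Uhrf1, Arrdc5, Klf6, 1700016G22Rik and the markers named) were chosen after their values were seen. A comparison of wild-type with knockout libraries was planned and needs values per library, so it was not run. The alternatives were 17 planned settings and 3 chosen after the values were seen.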

Additional observations from a re-analysis of the deposited data

How the results depend on the processing

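Results not given here kept direction and call under the settings run. The setting with transcript starts gave values identical to those reported, so it tested nothing. The same-strand share of peaks, 36.3%, moved to 31.2% (window of 5000 bases), 42.2% (20000), 41.7% (peaks left out to 5000 past gene ends), 32.2% (to 20000) and 48.8% (none left out). It also moved to 32.7% (no pseudogenes or TEC genes), 31.2% (wide peaks), 33.5% (no gene between), 27.1% (protein-coding partners) and 45.0% (those, none left out). The density ratio lost its call at 0.952 (none left out), and ranged from 0.437 to 0.952. In percentage points, same-strand minus divergent, the near share lost its call at -6.62 (window of 5000) and -5.77 (5′ ends). The wide share did at -6.05 (5′ ends), -7.39 (outside RefSeq genes) and -5.68 (1000 bases). The share with a partner sense peak changed sign to 0.574 (window of 20000), 5.68 (5′ ends), 0.0462 (whole peak outside genes) and 2.32 (no pseudogenes or TEC genes). It also changed sign to 0.329 (no gene between), 5.90 (protein-coding) and 0.404 (outside RefSeq genes). That of peaks close by did so at 2.06 (window of 5000), 1.49 (none left out) and 3.55 (protein-coding, none left out). Neither passed the test in any setting with a changed sign. Against peaks past gene ends the wide share gained a call at 4.72 (window of 5000), 4.22 (left out to 5000) and 3.13 (1000 bases). Against peaks far from genes it lost it at 3.70 (whole peak outside genes). The causes were not tested. The shares with a protein-coding partner and with a CpG-rich promoter kept direction and call in every setting run.

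No paired analysis was possible because the list holds no values per library, and for that reason the settings without 1 library and the fits of wild type against double knockout were not run. Library depth, and with it the error of a single peak, is unknown.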
